A study of Mus musculus with 8 samples.

Results

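The genes examined here code for the machinery that releases neurotransmitter from synaptic vesicles: 49 genes among the 37074 gene names on the array. A probe was assigned to a member when the gene name given to it in the array files was that of the member, and between 1 and 6 probes measured each gene. Dissected cortex and striatum of 4 male B6 mice (C57BL/6J, 4 months old) and 4 male BTBR/R mice (BTBRTF/ArtRbrc) gave total RNA, which was hybridized to 8 Agilent 1-colour arrays, with 1 mouse per array. BTBR/R replicate 1 was 6 months old and BTBR/R replicates 2 to 4 were 4 months old. BTBR/R is a subline of the inbred BTBR strain, whose subline BTBR/J is the one commonly studied for autism-like behavior, B6 is the common inbred control strain, and the labels give no treatment and no introduced allele. According to the methods the B6 mice came from a commercial breeder and the BTBR/R mice from a bioresource center, so strain and source cannot be told apart. All arrays lay on 1 slide. The B6 arrays filled its column 1 and the BTBR/R arrays its column 2, so that an effect of the column cannot be told apart from one of strain.

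Synaptic vesicles dock at the active zone, a protein scaffold on the presynaptic membrane, and are primed there for fusion. Fusion is driven by SNARE proteins on the vesicle and on the plasma membrane, is held and promoted by complexins, and is triggered by calcium through synaptotagmins. NSF and its adaptor alpha-SNAP then take the SNARE complexes apart for reuse. Vesicles held in reserve are bound to one another by synapsins, and Rab3 GTPases on the vesicle tether it to the active zone.

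Levels are given as the scaled signal, which is the log2 processed spot intensity minus the 75th percentile of its array. A change is the mean scaled signal of BTBR/R minus that of B6, with its standard error (SE) from limma. Detection on an array means that the scanner software flagged the probe as well above background. Of the member probes, 84 were detected on all 8 arrays, 95 on every array of at least 1 strain, 4 on some arrays only and 8 on no array. The array files name a RefSeq transcript in the reference table for 73 member probes, all under the same symbol. Each gene was represented by its brightest probe among those detected on all 8 arrays. By this rule 48 genes could be counted, and the exception was Slc18a1. In bulk tissue, fewer cells of a type and less RNA per cell cannot be told apart.

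The tissue carried the markers of its label. All 6 markers of cortical excitatory neurons and all 8 of striatal projection neurons were detected on every array, and their summed levels overlapped between the strains (82.3 to 92.5 in B6 and 86.5 to 104 in BTBR/R for the cortical list, on the linear scale with the 75th percentile of the array as 1). Neurod2 of the cortical list was higher (adjusted p = 0.0406), and no striatal marker was called. Inhibitory interneuron markers summed to 160 to 171 in B6 and 166 to 177 in BTBR/R mice, with Vip lower (adjusted p = 0.0463). Of the 6 markers of monoamine neurons 1 was detected on all 8 arrays, and Slc6a3, Slc6a4, Tph2, Dbh and Slc6a2 were not. The summed levels of 3 other lists did not overlap. Red blood cell markers summed to 148 to 482 in B6 and 106 to 130 in BTBR/R, with 5 of 7 lower. Among these 5 was Slc4a1, detected on no BTBR/R array, whereas Hbb-b2 gave 0.63 without passing (adjusted p = 0.228). Microglia markers summed to 51.9 to 53.7 against 45.7 to 49.3, with 4 of 7 lower and 1 higher, and endothelial markers to 16.1 to 17.2 against 12.7 to 14.9, with 1 of 6 lower. Of the astrocyte markers 3 of 6 were lower and of the myelin markers 2 of 7, with overlapping sums. Thalamus markers summed to 21.2 in B6 replicate 1 and 14.3 in BTBR/R replicate 2, against 7.83 to 8.82 in the other 6 mice, and choroid plexus markers ranged from 2.59 to 41.5 in B6 and from 6.25 to 25.9 in BTBR/R mice. The part of these lists in the differences below was not tested.

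The brightest probes of the release genes differed little between the strains. Of the 48 genes, 8 were higher and 4 lower in BTBR/R mice at an adjusted p below 0.05, and 36 did not pass. Where a called gene is said below to show no overlap of the strains, this describes the same values and adds no support. These shares of 16.7% and 8.33% stand beside backgrounds of 13.9% higher and 14.4% lower over the 18857 gene names with a probe detected on all 8 arrays. None of the 48 reached a 2-fold change, the limit the study's methods set, and the largest called change was 1.32-fold. Of the 18857 gene names, 420 passed the 2-fold limit with an adjusted p below 0.05, so the share was small there too. The median change of the 48 genes was 0.03 against 0.00 over all gene names (0.003 before rounding), and the median size of change was 0.11 against 0.12. The balance of directions moved with the scaling. Scaling to 7 spike-in probes shifted every change upward by 0.11 and gave 12 genes higher and 1 lower, whereas scaling to the array median gave 6 and 5, and normexp background correction 7 and 6. Without B6 replicate 1 and BTBR/R replicate 2, the mice with the highest thalamus marker sums, 7 genes were higher and 4 lower, with Cadps2 and Sv2b no longer called and Syt9 called, a comparison added after the values had been seen. Of the 36 genes that did not pass, 11 were called under at least 1 alternative, most often Doc2b (10 of 23) and Rims4 (7 of 23). Syt11, Cplx1 and Syngr3 were called under all 23 alternatives tried.

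**Figure D1:**
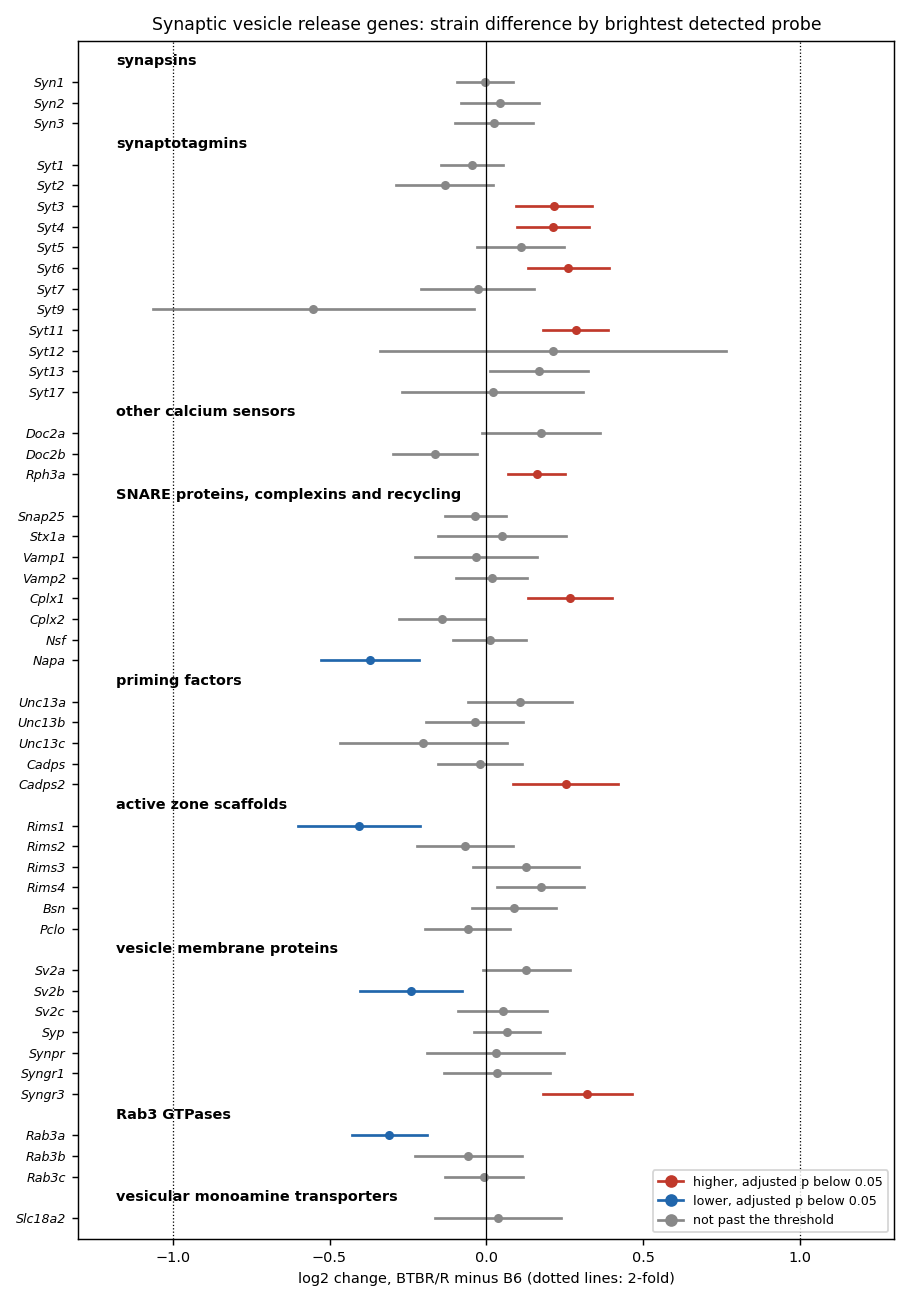
Change of each of 48 release genes between the strains (log2, BTBR/R minus B6; points) with its 95% confidence interval (lines), ordered by role and measured by the brightest probe detected on all 8 arrays. The 8 genes in red were higher and the 4 in blue lower at an adjusted p below 0.05, and all points lie within the dotted lines at 2-fold.

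Synapsins coat the vesicle and hold it in the reserve pool. None of the 3 passed the test with its brightest probe, and their changes lay between -0.01 and 0.04. Syn2 had the lowest p of the group. Its scaled signals were 5.55, 5.59, 5.53 and 5.70 in B6 mice and 5.60, 5.61, 5.64 and 5.68 in BTBR/R mice, which overlapped (change 0.04 with SE 0.05, adjusted p = 0.571). The 95% confidence interval of the Syn1 change ran from -0.10 to 0.09. The brightest Syn3 probe read -0.16, -0.13, -0.18 and -0.09 in B6 and -0.13, -0.21, -0.03 and -0.10 in BTBR/R mice. These values overlapped too (change 0.02, SE 0.05, adjusted p = 0.746).

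Synaptotagmins are vesicle and membrane proteins with paired C2 domains, several of which bind calcium. Of the 12 measured, 4 were higher in BTBR/R mice and none was lower in the limma fit, beside the 13.9% and 14.4% of all gene names, with a median change of 0.14. Syt11, a form that does not bind calcium, showed the lowest p. Its values were 5.43, 5.48, 5.43 and 5.52 in B6 mice and 5.76, 5.78, 5.71 and 5.75 in BTBR/R mice. Every BTBR/R mouse was above every B6 mouse (change 0.28, SE 0.04, 1.22-fold, adjusted p = 0.00155). The others that rose were Syt6 by 0.26, Syt3 by 0.22 and Syt4 by 0.21, each without overlap of the strains. Syt6 was no longer called when its detected probes were averaged (change 0.16, adjusted p = 0.142). A second Syt3 probe detected on all arrays gave 0.14 with overlap (adjusted p = 0.103). The Syt3 and Syt4 calls were lost in a fit with a replicate block. The main calcium sensor of fast release in the forebrain, Syt1, changed by -0.05 with its brightest probe (95% confidence interval -0.14 to 0.05). Syt2, a fast sensor best known from the hindbrain, gave -0.13, Syt7, a sensor of slow release, -0.03, Syt5 0.11, Syt13 0.17 and Syt17 0.02, and none of them passed.

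Syt9 and Syt12 were the least precisely measured of the synaptotagmins. Syt9 read -1.27, -1.96, -2.08 and -2.03 in B6 mice and -2.69, -2.03, -2.30 and -2.53 in BTBR/R mice, a change of -0.55 with SE 0.22 (adjusted p = 0.0839). B6 replicate 1, which also had the highest thalamus marker sum, stood above all the others, and the ranges overlapped. Without that mouse and BTBR/R replicate 2, which had the next highest sum, Syt9 was called lower (change -0.48, adjusted p = 0.0274). Syt12 read -1.63 in BTBR/R replicate 1, the 6-month-old mouse, and -2.50 to -2.72 in the other 3 BTBR/R mice, within reach of the B6 range of -2.70 to -2.48.

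Among the other calcium sensors, Rph3a, the Rab3 effector rabphilin, was higher. Its values were 1.87, 1.84, 1.83 and 1.83 in B6 and 1.98, 2.02, 2.02 and 1.99 in BTBR/R mice. The strains did not overlap, although the change was 0.16 (SE 0.04, 1.12-fold, adjusted p = 0.0142). With scaling to the array median the adjusted p was 0.0683, and the call was also lost with a replicate block. Doc2a and Doc2b, C2-domain sensors of spontaneous and asynchronous release, gave 0.17 and -0.16 and did not pass (adjusted p = 0.129 and 0.0552). The strains did not overlap for Doc2b, which was called lower under 10 of 23 alternatives, among them normexp correction (adjusted p = 0.0201) and median scaling (0.0316).

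Of the SNARE proteins, complexins and recycling factors, Cplx1 was higher, Napa was lower and 6 did not pass. None of the SNAREs passed with its brightest probe, although another detected Snap25 probe gave 0.21 (adjusted p = 0.0469). By the brightest probes Snap25 changed by -0.04, Stx1a by 0.05, Vamp1 by -0.03 and Vamp2 by 0.02, and the interval of Vamp2 ran from -0.10 to 0.13. Napa, which codes for alpha-SNAP, read 5.13, 5.11, 5.20 and 5.22 in B6 and 4.64, 4.82, 4.83 and 4.89 in BTBR/R mice. All BTBR/R mice lay below all B6 mice (change -0.37, SE 0.07, 1.29-fold, adjusted p = 0.00336). These values are from the brightest Napa probe, and a second detected probe gave 0.07 (adjusted p = 0.661). Nsf, the partner of alpha-SNAP, changed by 0.01. Complexin 1 (Cplx1) rose by 0.27 (SE 0.06, 1.20-fold, adjusted p = 0.00847) with no overlap. Complexin 2 (Cplx2) gave -0.14 with its brightest probe (adjusted p = 0.0924). The array annotation places that probe on chromosome 19 and the second Cplx2 probe, which gave -0.37 (adjusted p = 0.052), on chromosome 13.

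Priming factors make docked vesicles ready to fuse. Of 5 genes 1 was higher: Cadps2, which codes for CAPS2, a priming factor of dense-core vesicles. Its brightest probe read 2.28, 2.38, 2.21 and 2.43 in B6 and 2.51, 2.54, 2.54 and 2.71 in BTBR/R mice. The strains did not overlap (change 0.25, SE 0.07, 1.19-fold, adjusted p = 0.0263). The call was lost without B6 replicate 1 (adjusted p = 0.0642), B6 replicate 3 (0.066) or BTBR/R replicate 4 (0.0563), with normexp correction (0.0591), with median scaling (0.0775), with a floor at the highest detection limit (0.0572) and without both mice of high thalamus marker sums (0.0986). Cadps, the paralog, changed by -0.02, and the Munc13 genes Unc13a, Unc13b and Unc13c by 0.11, -0.04 and -0.20 without passing.

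The active zone scaffolds differed in 1 of 6 genes. Rims1, which links Rab3 on the vesicle to Munc13 and calcium channels, read 1.36, 1.35, 1.32 and 1.23 in B6 and 0.93, 0.69, 0.99 and 1.03 in BTBR/R mice. The BTBR/R values were all lower (change -0.41, SE 0.08, 1.32-fold, adjusted p = 0.0066), and with spike-in scaling the change was -0.29 (adjusted p = 0.0602). The other 3 detected Rims1 probes gave -0.34, -0.25 and -0.10, of which the first passed (adjusted p = 0.0139). The paralogs Rims2, Rims3 and Rims4 gave -0.07, 0.13 and 0.17, and the large scaffolds bassoon (Bsn) and piccolo (Pclo) 0.09 and -0.06. None of these 5 passed.

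Of the vesicle membrane proteins, Syngr3 was higher, Sv2b was lower and 5 did not pass. Syngr3 codes for synaptogyrin 3, a vesicle protein that binds the dopamine transporter. It read 4.30, 4.38, 4.20 and 4.35 in B6 and 4.61, 4.54, 4.72 and 4.64 in BTBR/R mice. This was the largest increase among the representative probes, without overlap (change 0.32, SE 0.06, 1.25-fold, adjusted p = 0.00448). Synaptophysin (Syp) changed by 0.07, synaptoporin (Synpr) by 0.03, Syngr1 by 0.03 and Sv2a, the target of the drug levetiracetam, by 0.13.

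Rab3a, the main vesicle GTPase of the 3 Rab3 genes, was lower with its brightest probe. Its values were 6.42, 6.45, 6.42 and 6.51 in B6 and 6.11, 6.07, 6.17 and 6.21 in BTBR/R mice. They did not overlap (change -0.31, SE 0.05, 1.24-fold, adjusted p = 0.00212), and with spike-in scaling the change was -0.20 (adjusted p = 0.102). Rab3b and Rab3c gave -0.06 and -0.01 and did not pass.

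**Figure D2:**
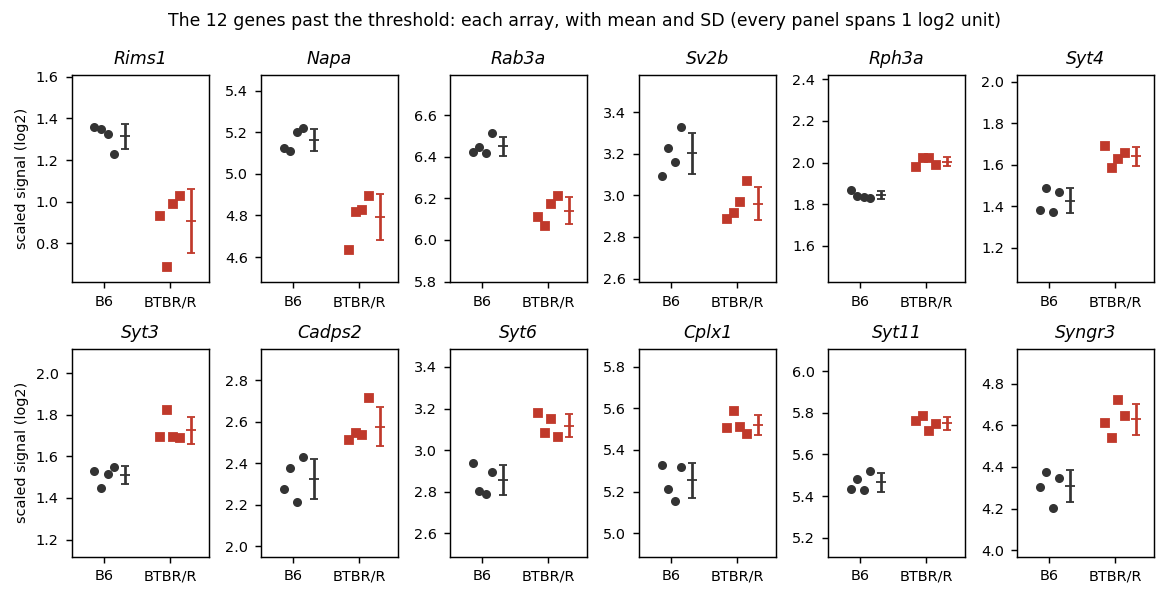
Scaled signal (log2) of the 12 called genes on each array, in order of their change, with B6 mice as black circles and BTBR/R mice as red squares. Short lines with bars give the mean and SD of 4 mice, every panel spans the same range, and no change exceeds 1.32-fold. The genes were picked by a test on these same values, so the separation of the strains in every panel adds no support.

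The vesicular monoamine transporters load dopamine, noradrenaline and serotonin into vesicles, and the neurons that use Slc18a2 have their cell bodies outside the cortex and striatum. The Slc18a2 probe read -0.96, -1.27, -1.26 and -1.19 in B6 and -1.13, -1.25, -1.03 and -1.13 in BTBR/R mice, which overlapped (change 0.04, SE 0.09, adjusted p = 0.769). For Slc18a1, best known from endocrine cells, none of 5 probes was detected on all arrays. The brightest read -4.72, -3.99, -4.31 and -3.96 in B6 mice, detected on all 4, and -6.13, -5.73, -5.81 and -5.92 in BTBR/R mice, detected on none. The fit called it lower (change -1.65, SE 0.18, adjusted p = 0.000224). The lowest detected signal was -5.28 to -4.98 on the B6 arrays. On the BTBR/R arrays it was -3.97 to -3.55, above the B6 mean of -4.24. A B6 level would thus go undetected on BTBR/R arrays, so the call gives neither a fold nor a direction. Of the other Slc18a1 probes, 1 was detected on BTBR/R replicates 1 and 2 only (-1.94 and -2.29, against -5.79 and -5.91 in replicates 3 and 4), and 1 on BTBR/R replicate 3 only (-0.70). No B6 array detected either of them.

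Of the 84 member probes detected on all 8 arrays, 1 passed the limit of 2-fold with an adjusted p below 0.05 in the limma fit, and it was higher, beside 1.04% higher and 1.16% lower of all 28547 such probes. When detection on the 4 arrays of either strain was enough, 95 member probes entered, and the fit called 2 of them higher (2.11%) and 3 lower (3.16%), beside 1.03% and 3.38% of 35539 probes. All 3 lower probes entered this wider set through the B6 arrays alone, whose detection limits were the lower ones, so the count of 3 says nothing about the direction of the members. It includes the Slc18a1 probe, for which neither a fold nor a direction can be given. That probe was not called at 2-fold with normexp correction or with a floor at the highest detection limit. The other called probes belonged to Sv2c, Sv2b and Syn3, and in each of these 3 genes the brightest probe changed by at most 1.18-fold. To show where the called and the brightest probes of these genes lie, the first 30 bases of each 60-base probe are given from the array files in lower case, 5′ to 3′, with the mm9 position and strand.
Sv2c, brightest, chr13:96724771-96724830, minus strand: tatgctcctttgtgtctcatttctgattgc
Sv2c, higher, chr13:96729454-96729513, minus strand: ctgtttctcatccctgggaaacaaatctgt
Sv2c, higher, chr13:96745986-96746045, minus strand: aatccatgatgataggcatgctgtgcttgt
Sv2b, brightest, chr7:82261261-82261320, minus strand: tagtgtttaggacctatgagaaatttatgc
Sv2b, lower, chr7:82349004-82349063, minus strand: gcaagggaaaagaacaaaatttctaactga
Syn3, brightest, chr10:85511620-85511679, minus strand: acaggtttttaaaaacaggaagacattggc
Syn3, lower, chr10:85533313-85533372, minus strand: aggtatggcagctggcagccgtgaccccag
All lie on the minus strand, and each called probe has the higher coordinate of its gene's pair, which is the upstream side for a minus-strand transcript. The called Sv2b probe was designed from a cDNA clone, the called Syn3 probe from an Ensembl transcript and the called Sv2c probes from RefSeq transcripts. The exon, intron or UTR that holds them is not analysed here.

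Sv2c is the SV2 family member known for its strong expression in the basal ganglia. Its brightest probe read 1.85, 1.86, 1.78 and 1.89 in B6 and 1.999, 1.79, 1.96 and 1.85 in BTBR/R mice, with overlap (change 0.05, SE 0.06, adjusted p = 0.535). The probe at chr13:96729454-96729513, detected on all 8 arrays, read -2.64, -2.84, -2.68 and -2.82 in B6 and 0.00, -0.15, -0.22 and -0.36 in BTBR/R mice. There the strains stood far apart (change 2.56, SE 0.09, 5.91-fold, adjusted p = 3.97e-06), and with normexp correction the change was 1.87. The probe at chr13:96745986-96746045 read -4.46, -4.47, -4.45 and -4.72 in B6 and -3.21, -2.14, -2.33 and -3.52 in BTBR/R mice, where replicate 4 was not detected. It too was higher in every BTBR/R mouse (change 1.73, SE 0.31, 3.31-fold, adjusted p = 0.00352), but with normexp correction the change was 0.86 and with a floor at the highest detection limit 0.75 (adjusted p = 0.249). The remaining Sv2c probe was detected in B6 mice only and gave -0.42 (adjusted p = 0.178).

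Sv2b, an SV2 form prominent in cortical excitatory neurons, showed the opposite direction. Its brightest probe read 3.09, 3.23, 3.16 and 3.33 in B6 and 2.89, 2.92, 2.97 and 3.07 in BTBR/R mice, without overlap (change -0.24, SE 0.07, 1.18-fold, adjusted p = 0.028). This call was lost without B6 replicate 2 (adjusted p = 0.0694), B6 replicate 4 (0.0614) or any of BTBR/R replicates 1, 2 and 3 (0.0655, 0.0647 and 0.0581), with spike-in scaling (0.345), with the floor (0.0581) and without both mice of high thalamus marker sums (0.0523). The clone-derived probe read -0.98, -0.87, -0.90 and -0.85 in B6 mice, and -6.00, -5.81, -5.87 and -4.42 in BTBR/R mice, where it was detected on no array. Measured against the detection limits of the BTBR/R arrays, the mean of the higher of each array's lowest detected signal and the probe's own value, the B6 mean was 7.0-fold higher, a size that was not tested itself. A floor at the highest detection limit gave a change of -2.65 and normexp correction -2.38, both smaller. The fit on all values called the probe lower (adjusted p = 2.76e-05).

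For Syn3, which codes for the synapsin expressed mainly during development, 5 of 6 probes were detected on every B6 array. The called probe read -0.56, -0.76, -0.85 and -0.91 in B6 mice and -2.84, -3.80, -3.58 and -2.56 in BTBR/R mice, where replicates 1 and 4 were detected and replicates 2 and 3 were not. All BTBR/R values were lower (change -2.42, SE 0.28, adjusted p = 0.000283). The size rests in part on arrays without detection, and normexp correction gave -1.47. The clone-derived probe at chr10:85586568-85586627 varied most among the BTBR/R mice, from -2.11 to -0.38, and gave -0.51 with SE 0.34 (adjusted p = 0.285). The 2 remaining probes detected in all B6 mice gave 0.22 and 0.13 and did not pass.

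Cadps2 also had a probe of lower signal in BTBR/R mice. At chr6:23637942-23638001 it read -3.43, -2.94, -3.36 and -3.10 in B6 mice and -3.92, -4.29, -4.36 and -3.73 in BTBR/R mice, detected on no BTBR/R array (change -0.87, SE 0.17, adjusted p = 0.00611). With a floor at the highest detection limit the change was -0.34 (adjusted p = 0.113). The second Cadps2 probe detected on all arrays gave 0.21 (adjusted p = 0.172), with 0.52 and 0.50 in BTBR/R replicates 1 and 2, 0.11 in replicates 3 and 4, and 0.07 to 0.13 in B6 mice.

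**Figure D3:**
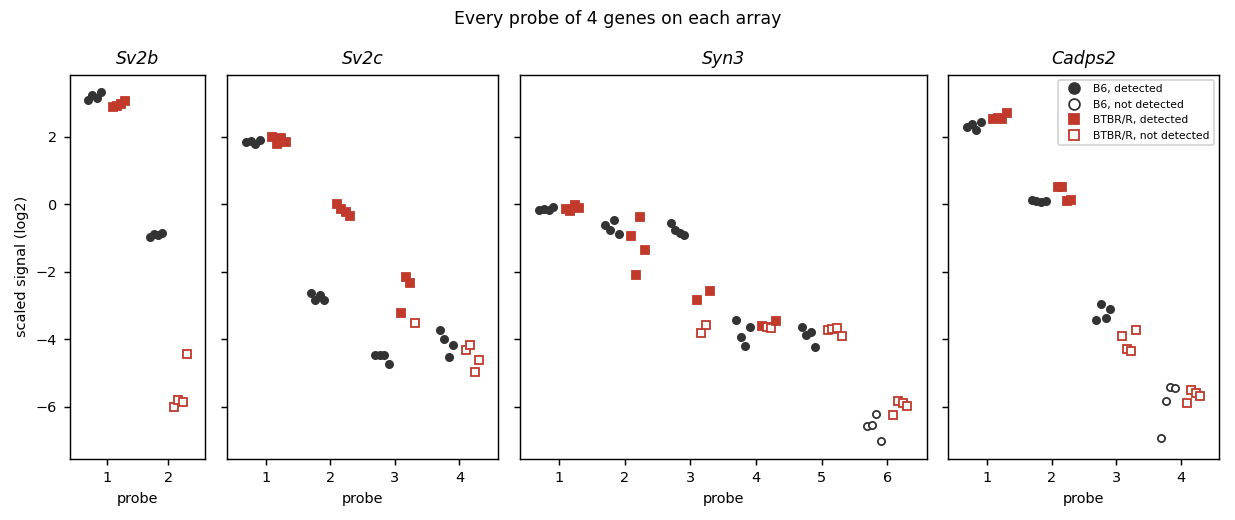
Scaled signal (log2) of every probe of Sv2b, Sv2c, Syn3 and Cadps2 on each array, with probes of a gene numbered by detection on all 8 arrays and then by mean signal, B6 as black circles, BTBR/R as red squares and open symbols where the probe was not detected. The strain means of probe 1 differ by at most 0.25 in each gene, while Sv2b probe 2 and Syn3 probe 3 lie lower and Sv2c probes 2 and 3 higher in BTBR/R mice.

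Because these genes gave different answers with different probes, each member probe detected on all 8 arrays was compared with the brightest such probe of its gene by the difference of their signals on the same array. This comparison was chosen after the values had been seen. It covered 36 pairs in 27 genes, and 10 pairs (27.8%) in 9 genes differed between the strains at an adjusted p below 0.05. The background over 9690 pairs of all genes was 18.8%. The distance from the background depended on the setting, with 16.7% of member pairs beside 16.4% of all pairs in the methods' t-test, 9 of 36 member pairs beside 24.7% with normexp correction, and 13.9% beside 15.5% both with a replicate block and without the mice of high thalamus marker sums. The share is thus no result about the release genes. Scaling of the arrays cancels in such a difference. Pairs of a gene share its brightest probe.

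The pair with the largest difference was that of Sv2c, at 2.51 (SE 0.09, adjusted p = 1.76e-07). For Rab3a the second probe, within chr8:73280430-73281061, gave 0.04 where the brightest gave -0.31 (difference 0.34, SE 0.05, adjusted p = 0.000848). The Napa pair was alike in form, with 0.07 against -0.37 (difference 0.44, SE 0.10, adjusted p = 0.018). When the detected probes of each gene were averaged, neither Rab3a (-0.14, adjusted p = 0.0804) nor Napa (-0.15, adjusted p = 0.109) was called. Averaging instead called Cplx2 (-0.26), Doc2b (-0.16) and Syt1 (-0.24) lower and Pclo (0.15), Unc13a (0.20) and Sv2c (1.31) higher, so that 15 genes were called. The Sv2c value is a mean of discordant probes, at 0.05 and 2.56. Doc2b has only 1 probe, so its change stayed the same and only the adjusted p differed (0.0347 against 0.0552).

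In Syt1, 2 probes at chr10:108336326-108336385 and chr10:108336500-108336559 were lower in BTBR/R mice, by -0.39 and -0.28 (adjusted p = 0.00459 and 0.0202), although the brightest probe, about at the other end of the annotated range, gave -0.05. Their differences from it were -0.34 and -0.23 (adjusted p = 0.00539 and 0.0343). In 5 further genes a second probe lay above the brightest one, which did not pass. These second probes gave 0.34 in Pclo, 0.47 in Unc13a, 0.31 in Nsf, 0.21 in Snap25 and 0.30 in Syt2, of which the Syt2 probe did not pass on its own (adjusted p = 0.0617). The differences from the brightest probe were 0.40, 0.36, 0.30, 0.24 and 0.43 (adjusted p = 0.00339, 0.0152, 0.0294, 0.0401 and 0.0143). Nsf had 3 other detected probes, which gave 0.01, 0.04 and -0.03, and Snap25 had 2, which gave -0.04 and -0.02. The remaining detected probe of Unc13a gave 0.02 (adjusted p = 0.845) and that of Pclo 0.17 (adjusted p = 0.165).

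**Figure D4:**
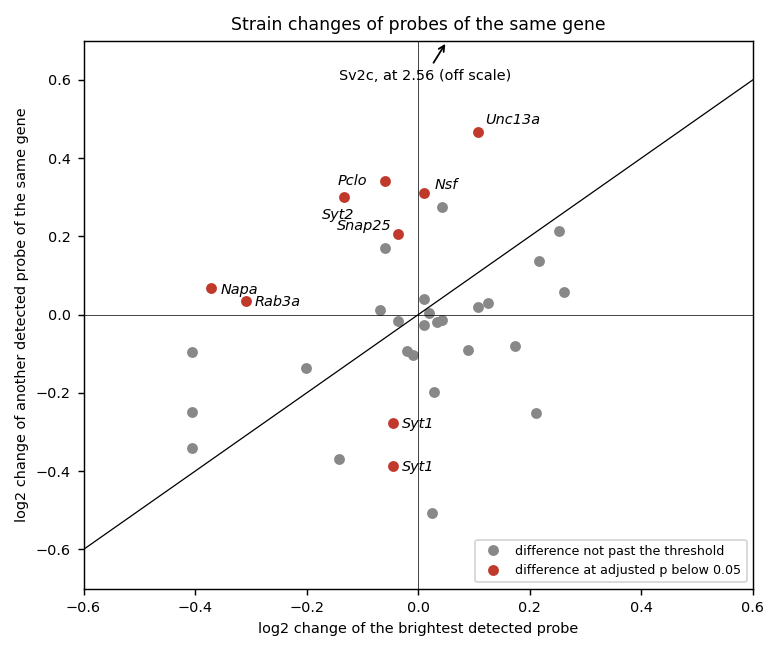
Change between the strains (log2, BTBR/R minus B6) of a second probe against that of the brightest probe of the same gene, for 36 pairs of probes detected on all 8 arrays, with the line of equality. The 10 red pairs differed at an adjusted p below 0.05, and the Sv2c pair lies beyond the axis at 2.56.

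Other genes of the vesicle cycle were taken from lists of exocytosis factors, transporters of other transmitters, the vacuolar proton pump that acidifies vesicles, and endocytosis factors that retrieve vesicle membrane. Of 103 genes, 96 could be counted. In BTBR/R mice 10 of these were higher (10.4%) and 8 lower (8.33%), beside the 13.9% and 14.4% of all gene names. This balance too moved with the scaling, to 17 higher and 1 lower with spike-in scaling and to 6 and 5 with median scaling. The genes named here other than Syt10 and Rab27b were chosen after their values were seen. Among 41 exocytosis genes, 3 were higher (Syt10, Syngr2 and Cacna1b) and 5 lower (Vamp3, Stxbp5, Sncb, Syt16 and Sypl), of which Vamp3, a SNARE of non-neuronal exocytosis, fell by 0.90 (SE 0.05, adjusted p = 2.76e-05). Its second probe fell by 0.73. Stxbp5 gave opposite calls, with -0.26 by its brightest probe (adjusted p = 0.0116) and 0.33 by another detected probe (adjusted p = 0.017), and the remaining detected probe gave 0.20 (adjusted p = 0.213). The 6 transporters, which load glutamate, GABA and acetylcholine among others, ranged from -0.13 to 0.04 and none passed. Of 16 proton pump genes Atp6v1f was higher and Atp6v1h lower. Of 33 endocytosis genes 6 were higher and 2 lower, with the largest increase in Ap2s1, the small subunit of the AP2 adaptor, at 0.67 (SE 0.05, 1.59-fold, adjusted p = 2.76e-05). Dynamin 1 (Dnm1), which cuts the vesicle neck, gave 0.24 with its brightest probe (adjusted p = 0.00213) and 0.05 with a second detected probe (adjusted p = 0.633).

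Past 2-fold were Syt10, a synaptotagmin of peptide vesicles, and Rab27b, a GTPase of secretory granules. The brightest Syt10 probe read -3.57, -3.27, -2.70 and -3.004 in B6 and 3.17, 3.04, 2.89 and 2.61 in BTBR/R mice, all 8 detected. The strains stood far apart (change 6.07, SE 0.20, 67.0-fold, adjusted p = 3.5e-06), yet a second detected Syt10 probe gave 0.11 (SE 0.12, adjusted p = 0.487). The brightest Rab27b probe gave 0.18 (adjusted p = 0.0522), and a second detected probe read -0.02, 0.13, 0.03 and 0.03 in B6 against -1.32, -1.37, -1.29 and -1.47 in BTBR/R mice (change -1.41, SE 0.06, adjusted p = 8.93e-06). In both genes the strains overlapped or lay close with 1 probe and stood apart with another.

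**Figure D5:**
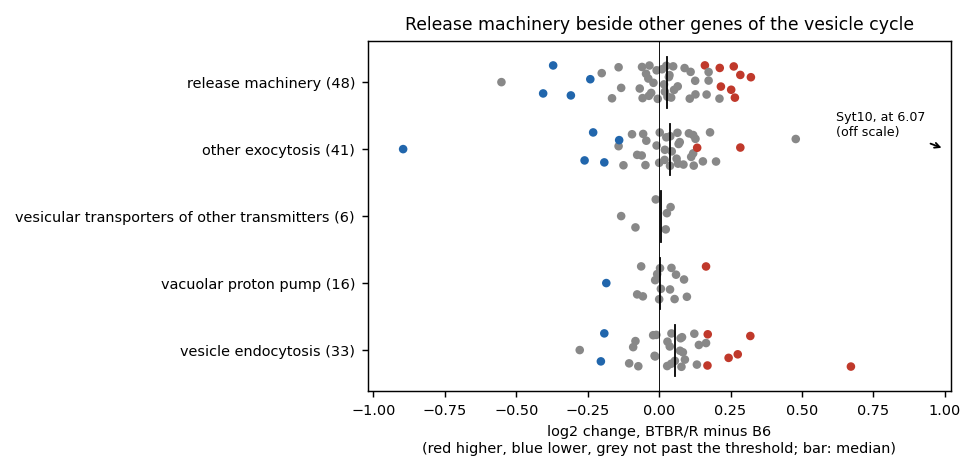
Change of each gene (log2, BTBR/R minus B6) by its brightest probe detected on all 8 arrays, for the 48 release genes and 4 lists of other vesicle cycle genes with the number of genes in brackets, and the median of each list as a bar. The medians lie between 0.005 and 0.055, and Syt10 lies beyond the axis at 6.07.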

How the data were processed

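Total RNA of 8 mice was labelled with Cy3 and hybridized by the authors, 1 mouse per array. The authors deposited spot intensities from Agilent Feature Extraction 10.7.3.1 (per the submitters' processing notes), in which the processed signal is background subtracted and the lowest signals are replaced by surrogate values. They also deposited log2 values from GeneSpring, used here as an alternative. Other deposited columns hold flags, gene names and mm9 positions.

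Control spots and outlier spots were left out and spots of a probe averaged, leaving 56605 probes. The log2 processed signal minus each array's 75th percentile was compared between strains with limma 3.58.1 (lmFit, eBayes) under R 4.3.3, and p-values were adjusted over all probes by the Benjamini-Hochberg method. The files held the intensities the design assumed. The rest was done in Python 3.11.15 with pandas 2.3.3, numpy 2.4.6 and scipy 1.17.1, and figures with matplotlib 3.10.9. Fits were tested on simulated data. Samples were grouped by their labelled strain. The mice are separate animals, and their number, 4 per strain, limits the precision, as do the detection limits (14.5 to 17.8 in B6, 36.1 to 47.1 in BTBR/R, linear signal). Intervals are at 95% confidence.

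The members, lists and tests were chosen with earlier results of these data known. Values on every array are given for member probes called at 2-fold, the member of lowest p in each role, and Syn3, Cadps2 and Slc18a1, which the study names. Of other genes, those called at 2-fold were named by rule. No genome of the mm9 build was used, and whether probes match the BTBR/R sequence is not analysed here. Alternatives covered background correction, scaling, the authors' log2 values, filters, a floor, the methods' t-test, limma options, a replicate block, probe averaging and leaving out each mouse, and, chosen after the data were seen, leaving out both mice with the highest thalamus marker sums.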

Additional observations from a re-analysis of the deposited data

Results flagged for a closer look

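In 10 of 106 groups of 4 mice (representative and 2-fold probes, both strains), 1 mouse lay further from the others than Dixon's 95% critical value allows. For a single group chance gives about 1 in 20, but these groups come from the same 8 mice. The count thus shows no excess over chance. Of the 10 outlying values, 5 were from B6 replicate 1, which also had the highest sum of thalamus markers (21.2 against 7.96 to 8.38 in the other B6 mice). Whether the marked tissue has a part in these values was not tested. That mouse read -1.27 for Syt9 against -2.08 to -1.96 in the other B6 mice, 2.98 for Vamp1 against 2.70 to 2.73, and 4.90 for Rims3 against 4.63 to 4.67. It lay lower than the others for Syt17 (-1.44 against -1.21 to -1.195) and for Pclo (3.83 against 3.92 to 3.94). B6 replicate 3 read 3.82 for Rab3c against 3.92 to 3.94, and B6 replicate 4 read -4.72 for the Sv2c probe at chr13:96745986-96746045 against -4.47 to -4.45.

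Among BTBR/R mice, replicate 2 read 1.82 for Syt3 against 1.69 in the others. Replicate 4 read 2.71 for Cadps2 against 2.51 to 2.54, and -4.42 for the clone-derived Sv2b probe against -6.00 to -5.81, none of them detected. Syt3 remained called without BTBR/R replicate 2, whereas Cadps2 was not called without BTBR/R replicate 4 (adjusted p = 0.0563).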

How the results depend on the processing

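The 12 called release genes stayed called with quantile normalization, the authors' log2 values, both detection filters, trend and robust settings of limma, outlier spots kept and the methods' t-test. Of these, quantile normalization, both filters and the t-test added Doc2b and Rims4 (14 called), and trend and robust settings also Cplx2 and Syt13 (16 called). The count of higher genes, 8, became 5 with a replicate block, which lost Syt3, Syt4 and Rph3a. That of lower genes, 4, became 1 with spike-in scaling. Without 1 mouse the counts ran from 7 to 10 and from 3 to 4. Same-numbered mice did not deviate together (correlations -0.07 to 0.156 over probes detected on all arrays, and the best match for own number in 1 of 4 numbers), so the block tests no real pairing. Of the 2 probes higher at 2-fold, 1 was left with normexp, with a floor and with the filter for all 8 arrays, which leaves out the 3 lower probes and so gives 0. Without 1 mouse the counts stayed at 2 and 3. Other vesicle cycle genes higher, 10, became 6 with median scaling, 17 with spike-in scaling, 16 with trend and robust options, 6 with the block and 5 to 9 without 1 mouse. Those lower, 8, became 5 with median scaling, 1 with spike-in scaling, 5 with a floor, 4 with the block and 4 to 7 without 1 mouse. The 10 differing probe pairs became 6 with the methods' t-test and 5 with the block, all of them among the 10, and 7 to 10 without 1 mouse. Without both mice of high thalamus marker sums, the pairs became 5, again among the 10, and the lower vesicle cycle genes 4. The brightest Syn3 probe, never called, changed sign with normexp and with median scaling (-0.003 each) and without BTBR/R replicate 3, where leaving out 1 mouse gave -0.005 to 0.056. Probe averaging gives no value for single probes, and its Syn3 value (-0.24, adjusted p = 0.326) is a mean that includes other probes. Except where shown above, the cause was not tested.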

Other observations

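Of the 8 member probes detected on no array, 5 met the 2-fold rule as higher in BTBR/R mice. They belong to Syt11, Vamp1, Bsn and Slc18a1. The Vamp1 probe read -3.91 and -3.94 in BTBR/R replicates 1 and 3 and -5.73 and -5.91 in replicates 2 and 4. Surrogate values stood in for 16.9 to 19.7% of the spots on B6 arrays and 25.6 to 29.6% on BTBR/R arrays, whose detection limits were higher. No change in expression can be read from these undetected probes, and they were not counted in any comparison.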
